A study of Mus musculus with 8 samples.

Results

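The genes described here are 9 growth-associated genes of the axon and growth cone, namely Gap43, Basp1, Marcks, the stathmins Stmn1, Stmn2, Stmn3 and Stmn4, Dpysl3 and Dcx. They were taken by symbol from a list of 26711 features, and all 9 were found there. Their unique molecular identifiers (UMIs, each marking 1 captured RNA molecule) were summed per library and deposited cell type, and a level is given as CPM, the UMIs of the gene scaled to a common total for that library and cell type. The nuclei came from mouse primary visual cortex (V1) on postnatal day 21 and were read by droplet-based single-nucleus RNA-seq with capture at the 3′ end of the transcripts. There were 102330 nuclei in 20 cell types, of which 69372 were excitatory neurons, 10403 inhibitory neurons and 22555 other cells.

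All animals carried GRfl/fl, the loxP-flanked alleles of Nr3c1, the gene of the glucocorticoid receptor (GR), and all received an AAV2/5 vector at birth in which the GfaABC1D promoter, active in astrocytes, drove EGFP-CAAX. In GR-KO animals the vector also carried Cre, and in GR-Con animals it carried the inactive ΔCre. Animals of each genotype were normally reared (NR) or dark-reared (DR). This gave 4 groups, GR-Con and GR-KO each under NR and under DR, with 2 libraries each, 1 from a female and 1 from a male. Below, values of a group are given with the female library first. Sex is the only label of the animal that separates the libraries of a group in the cell table. A difference between them may therefore come from sex, from the animal or from library making. Depth and numbers of nuclei differed between them too, as in NR GR-KO, with 59 L5PT nuclei in the female and 455 in the male.

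Libraries held 9517 to 15161 nuclei, 168632129 to 288774016 UMIs, and a median of 14861 to 29223 UMIs per nucleus, highest in the NR GR-KO female. A total of 2452 nuclei carried 1 of 1220 barcodes that occurred in more than 1 library. Of 41 markers of single cell types, 36 were highest in the type they mark, and the exceptions were Rorb and Rspo1 of L4, Parm1 of L5PT, and Osr1 and Sulf1 of L6IT. In astrocytes Nr3c1 itself was at 221 and 231 CPM in NR GR-Con, 268 and 284 in NR GR-KO, 207 and 263 in DR GR-Con and 275 and 274 in DR GR-KO. It was thus not lower in the GR-KO libraries, and 3′ counts check nothing about the genotype where the deleted part lies outside the counted part. In chandelier cells (ChC), microglia (Micro), endothelial cells (Endo), smooth muscle cells with pericytes (SMC-Peri) and vascular leptomeningeal cells (VLMC), at least 1 library had under 10 nuclei. Microglia were down to 4, 2 and 4 nuclei in DR GR-Con female, NR GR-Con male and NR GR-KO male.

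The growth cone at the tip of a growing axon is pushed and steered by actin under its membrane and by microtubules that reach into it. Gap43, Basp1 and Marcks are proteins of the inner face of the membrane that bind the membrane lipids or calmodulin and are controlled by protein kinase C. Stathmins bind tubulin and promote the disassembly of microtubules, while Dpysl3 (also named CRMP4) and Dcx (doublecortin) bind cytoskeletal proteins and act in axon growth and neuronal migration. Many of these genes are strongly expressed while axons grow and fall as circuits mature, and Gap43 in particular is used as a marker of growing or remodelling axons.

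How these proteins reach membranes can be read from the start of their coding sequences, which are shown because the members differ there. The sequences were read from GENCODE vM21 transcripts on GRCm38, 5′ to 3′ from the start codon. Gap43 is anchored through palmitoylated cysteines, and its cysteine codons 3 and 4 are in capitals. Basp1 and Marcks are myristoylated on the glycine after the start methionine, and that glycine codon is in capitals.
Gap43: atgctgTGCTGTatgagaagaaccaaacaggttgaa
Basp1: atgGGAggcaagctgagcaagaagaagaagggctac
Marcks: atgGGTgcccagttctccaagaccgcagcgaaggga
The Gap43 stretch lies on the minus strand within chr16:42292361-42340502, in exons 1 and 2 with an intron between them. The Basp1 stretch is in exon 2, at chr15:25364874-25364909, and that of Marcks in exon 1, at chr10:37138500-37138535, both on the minus strand.

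Among the stathmins, Stmn1 is a cytosolic protein, whereas Stmn2, Stmn3 and Stmn4 have an added N-terminal domain with cysteines through which they attach to membranes. The first 30 codons are given, with the cysteine codons in capitals.
Stmn1: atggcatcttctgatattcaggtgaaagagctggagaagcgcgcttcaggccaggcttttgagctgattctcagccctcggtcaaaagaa
Stmn2: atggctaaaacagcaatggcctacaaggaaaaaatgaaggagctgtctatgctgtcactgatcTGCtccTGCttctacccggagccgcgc
Stmn3: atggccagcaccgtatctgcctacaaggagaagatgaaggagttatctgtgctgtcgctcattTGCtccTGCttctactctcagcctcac
Stmn4: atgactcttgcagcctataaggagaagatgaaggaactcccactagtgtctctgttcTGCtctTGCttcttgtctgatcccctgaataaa
Within these 30 codons, cysteine codons were at positions 22 and 24 in Stmn2 and Stmn3 and at 20 and 22 in Stmn4, and Stmn1 had none. Over the whole coding sequences, Stmn1 held 0 cysteine codons in 149, Stmn2 and Stmn3 held 2 each and Stmn4 held 4. The stretches of Stmn1 (chr4:134470163-134470743, exons 2 and 3), Stmn2 (chr3:8509612-8541911, exons 1 and 2) and Stmn4 (chr14:66354433-66355662, exons 2 and 3) were on the plus strand, and that of Stmn3 (chr2:181309172-181314212, exons 1 and 2) on the minus strand.

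The first question was in which cell types each gene was high, taking all 8 libraries together. Levels are compared between cell types of the same gene only. Neighbours in the order of mean levels were compared within libraries by an exact two-sided sign-flip permutation test on log2(CPM + 1), whose smallest p with 8 libraries is 0.0078125. Over all 20 types, 0 of 171 neighbour pairs passed after Benjamini-Hochberg adjustment, and 37 had an unadjusted p under 0.05. Over the 15 types with at least 10 nuclei in every library, a restriction chosen after the numbers of nuclei had been seen, 30 of 126 pairs passed, each at an exact adjusted p of 0.0328 and with the same sign in 8 of 8 libraries.

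**Figure D1:**
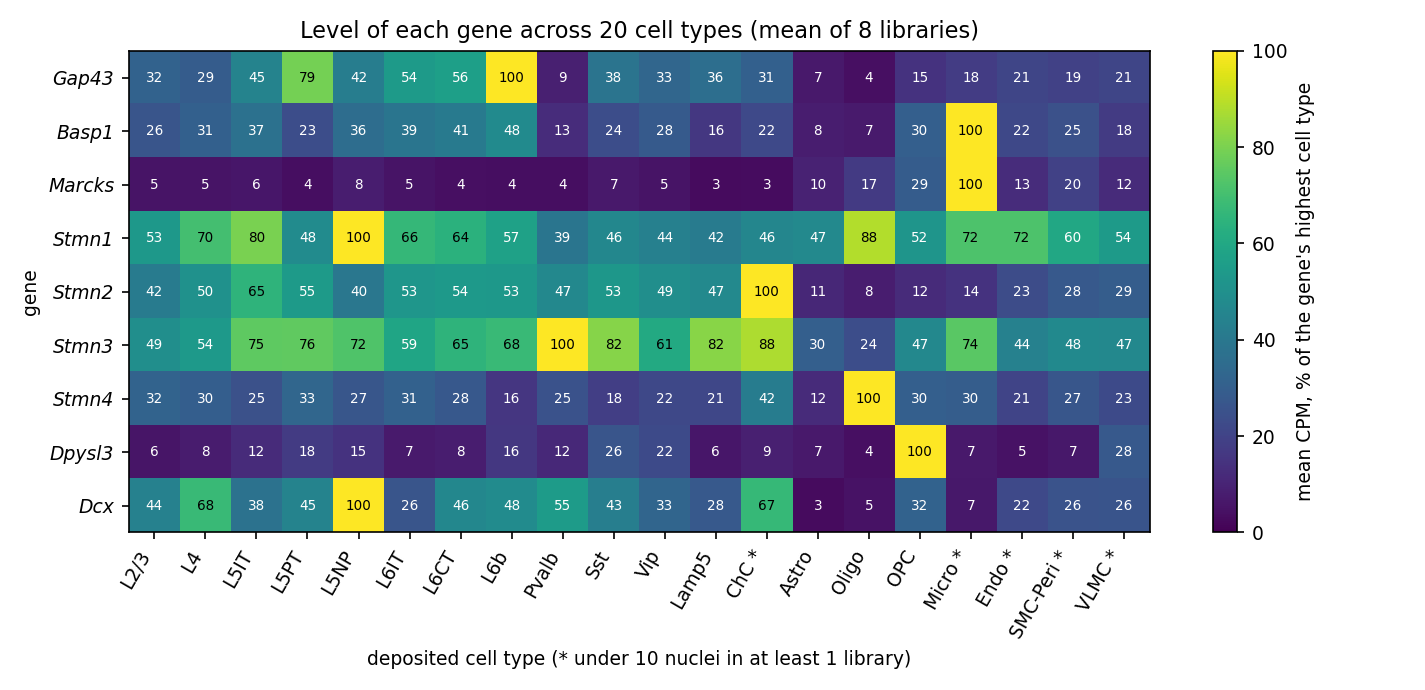
Mean level of each of the 9 genes (rows) in each of the 20 deposited cell types (columns), as a percent of that gene's highest cell type, over 8 libraries. Gap43 peaks in L6b, Basp1 and Marcks in microglia, Stmn4 in oligodendrocytes, Dpysl3 in oligodendrocyte precursors and Dcx in L5NP. Types with under 10 nuclei in at least 1 library carry an asterisk.

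Gap43 was highest in the deep-layer excitatory neurons. It was at 220.4 ± 27.9 CPM in L6b neurons (SD, n = 8 libraries), 175 ± 48.9 CPM in the L5PT neurons that project below the cortex, 124 ± 34.2 in corticothalamic L6CT neurons and 119.9 ± 22.0 in L6IT neurons. L5IT neurons were at 98.5 ± 37.6 CPM, L5NP at 93.4 ± 15.7, L2/3 at 69.7 ± 21.6 and L4 at 64.0 ± 21.3. Inhibitory neurons lay in the same range, with 84.5 ± 16.2 in Sst, 80.1 ± 14.5 in Lamp5 and 72.9 ± 10.7 in Vip neurons, except for Pvalb neurons at 19.0 ± 4.96 CPM. Oligodendrocyte precursors (OPC) were at 32.1 ± 7.67 CPM, astrocytes at 14.8 ± 5.69 and oligodendrocytes lowest at 9.05 ± 3.76, 24.4-fold under L6b. The steps from L6b to L5PT, from L5PT to L6CT, from L4 to OPC and from astrocytes to oligodendrocytes passed among the 15 types, and the other neighbours, among them L6CT and L6IT, or L5IT and L5NP, did not pass.

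Its membrane partners had other peaks. Basp1 was highest in microglia, at 464 ± 73.4 CPM over the 5 libraries with at least 10 nuclei, and next in L6b neurons at 245 ± 17.7 CPM. Lower levels followed in L6CT (210.3 ± 17.7), L6IT (198 ± 16.1), Pvalb neurons (65.6 ± 5.43), astrocytes (40.5 ± 10.9) and oligodendrocytes (37.7 ± 8.62). Of its neighbour pairs 7 of 14 passed, the most of any member. Marcks was also highest in microglia, at 278 ± 22.4 CPM over those 5 libraries, and among the 15 types with enough nuclei it was highest in glia, with 78.8 ± 7.43 CPM in OPC, 45.8 ± 5.59 in oligodendrocytes and 26.1 ± 6.3 in astrocytes. All neuron types were below that, from 22.0 ± 1.51 in L5NP to 7.84 ± 1.55 in Lamp5 neurons, and the steps from OPC to oligodendrocytes and from there to astrocytes passed.

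The stathmins differed in where they were found. Cytosolic Stmn1 was the most even of the 9 genes, with a 2.57-fold range from 76.4 ± 6.99 CPM in L5NP to 29.7 ± 4.96 in Pvalb neurons, and 1 of its 14 neighbour pairs passed, from L5IT (61.1 ± 3.73) to L4 (53.7 ± 4.89). Stmn2 and Stmn3 were lowest in astrocytes and oligodendrocytes. Stmn2 had its highest mean in chandelier cells, at 216 ± 47.9 CPM on 22 to 42 UMIs and 5 to 14 nuclei per library. Among the 15 types with enough nuclei it was highest in L5IT neurons, at 141 ± 11.1 CPM, and it was at 85.9 CPM or more in every other neuron type, against 26.5 ± 12.8 in OPC, 23.9 ± 6.93 in astrocytes and 17.5 ± 5.87 in oligodendrocytes, and the step from L5NP (85.9 ± 12.6) to OPC passed. Stmn3 was highest in Pvalb neurons, at 93.9 ± 7.69 CPM, and among the 15 types with enough nuclei the step from there to Lamp5 (77.1 ± 7.12) passed. Chandelier cells had a mean of 82.2 CPM. Sst neurons followed at 76.8 ± 6.55 CPM, while the inhibitory Vip neurons, at 57.1 ± 5.12, lay below 5 of the 8 excitatory types. Stmn4 was highest in oligodendrocytes, at 86.0 ± 14.99 CPM, and was at 28.3 ± 2.99 in L5PT, 13.7 ± 2.81 in L6b and 10.5 ± 3.34 in astrocytes. Its step from oligodendrocytes to L5PT, 1.56 on the log2 scale with an SD of 0.24, passed.

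Dpysl3 was highest in OPC, at 216 ± 28.7 CPM, followed by Sst (56.7 ± 8.41) and Vip neurons (48.2 ± 5.39), and it was lowest in oligodendrocytes at 8.43 ± 3.84 CPM, 25.6-fold under the precursors. Dcx, a gene of chromosome X (143855842 to 143933311, minus strand) best known from migrating neuroblasts, was found in every neuron type at this age. It was at 267 ± 20.2 CPM in L5NP, 182 ± 32.5 in L4, 146 ± 7.78 in Pvalb and 70.3 ± 10.8 in L6IT neurons, against 84.5 ± 5.48 in OPC, 13 ± 2.82 in oligodendrocytes and 7.88 ± 1.97 in astrocytes. The steps from L5NP to L4 and from L6IT to oligodendrocytes passed.

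Across the 20 cell types, mean levels of Gap43 went with those of Stmn2 (Pearson r = 0.78) more than with those of Basp1 (r = 0.55) or Stmn1 (r = 0.21), and against those of Marcks (r = -0.56). The closest members were Stmn2 with Stmn3 (r = 0.84) and with Dcx (r = 0.82). The points are 20 cell types that share the same 8 libraries, so these values are descriptions. Among 11096 other genes with at least 20 CPM in some type, Celf5 (r = 0.93) and Khdrbs3 (r = 0.89) were among the 3 most like Gap43 on the log2(CPM + 1) scale. For Basp1 they were Tanc2, Pou2f2 and Rtn1, for Marcks Smarcad1, Supt16 and Lars2, for Stmn1 Tyro3, Rasal1 and Zfp101, and for Stmn2 Mirg, Clvs1 and Ankrd45. Stmn3 was most like Kif5a and Scrt1, Stmn4 most like Slc44a1, Tubb4a and Map6d1, Dpysl3 most like Asic1, Castor2 and Ebf4, and Dcx most like Srrm3, Cacna1a and Crmp1. All of the genes named had r between 0.77 and 0.95. The choice depended on the measure, since by Spearman's rho of the CPM values 7 of the 27 genes were again among the 3 most like their member, and rho of those named ran down to 0.38, for Tubb4a with Stmn4.

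The second question was whether rearing in the dark changed these genes where GR was intact. In DR GR-Con, Gap43 was higher than in NR GR-Con in the L5IT and L4 neurons, Dpysl3 was higher in L2/3 and L6CT neurons, and Stmn4 in Sst neurons. These 5 calls, all upward, were made among 135 pairs of a member and a cell type by the edgeR likelihood ratio test at an adjusted p under 0.05. Over all genes and cell types that test called 1.41% of pairs higher and 0.84% lower, and in the excitatory types, which held 4 of the 5 calls among 72 pairs, 2.17% higher. The edgeR quasi-likelihood F-test, which called 0.495% of all pairs in either direction, called 2 of the members' pairs, DESeq2 called 5 (1.51% of all pairs), and with sex as a term 9 were called, where the share over all pairs also rose, to 3%. The 5 by DESeq2 were not the same 5. They were Gap43 in 4 excitatory types and Dpysl3 in L2/3, without Dpysl3 in L6CT or Stmn4 in Sst. The median log2 fold change of the 135 pairs was 0.01, against 0.00 over all genes.

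In L5IT neurons, Gap43 was at 56.3 and 51.2 CPM in NR GR-Con, 60.8 and 138 in NR GR-KO, 100.3 and 141 in DR GR-Con and 112 and 128 in DR GR-KO. Both DR GR-Con libraries thus lay above both NR GR-Con libraries, and the NR GR-KO libraries spanned almost the whole range. The mean went from 53.8 ± 3.63 CPM in NR GR-Con to 121 ± 28.7 in DR GR-Con (SD, n = 2 each), a log2 fold change of 1.17 ± 0.20 (SE) with an adjusted p of 8.13e-07 by the edgeR likelihood ratio test and 0.0146 by the quasi-likelihood F-test. Fits that left out 1 library compared 1 library with 2, so that the spread came from the 2 libraries of the other group alone and the lone library was assumed to vary like them. In the 4 such fits of Gap43 in L5IT the log2 fold change was 0.87 to 1.42 and passed the threshold, and such fits are given below as values and not as a check by replication. Thinned to 5000 UMIs per nucleus, the share of L5IT nuclei with a Gap43 UMI was 22.0% and 20.4% in NR GR-Con, 23.0% and 44.5% in NR GR-KO, 36.1% and 46.8% in DR GR-Con and 38.7% and 41.1% in DR GR-KO, for which 0, 0, 1 and 3 nuclei were left out. The order of the groups was the one seen in CPM. Oligodendrocytes, where Gap43 was lowest, had a mean share of 4.42% at the same depth. A share counts nuclei with a UMI and does not show that they express the gene, and since oligodendrocytes also held transcripts of neuron markers, at 208 to 505 CPM over 6 genes, theirs is not a clean background. The unthinned means were 73.6% in L5IT nuclei and 8.35% in oligodendrocytes, at group medians of 19387.5 to 31248.5 and 7210 to 12795 UMIs.

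**Figure D2:**
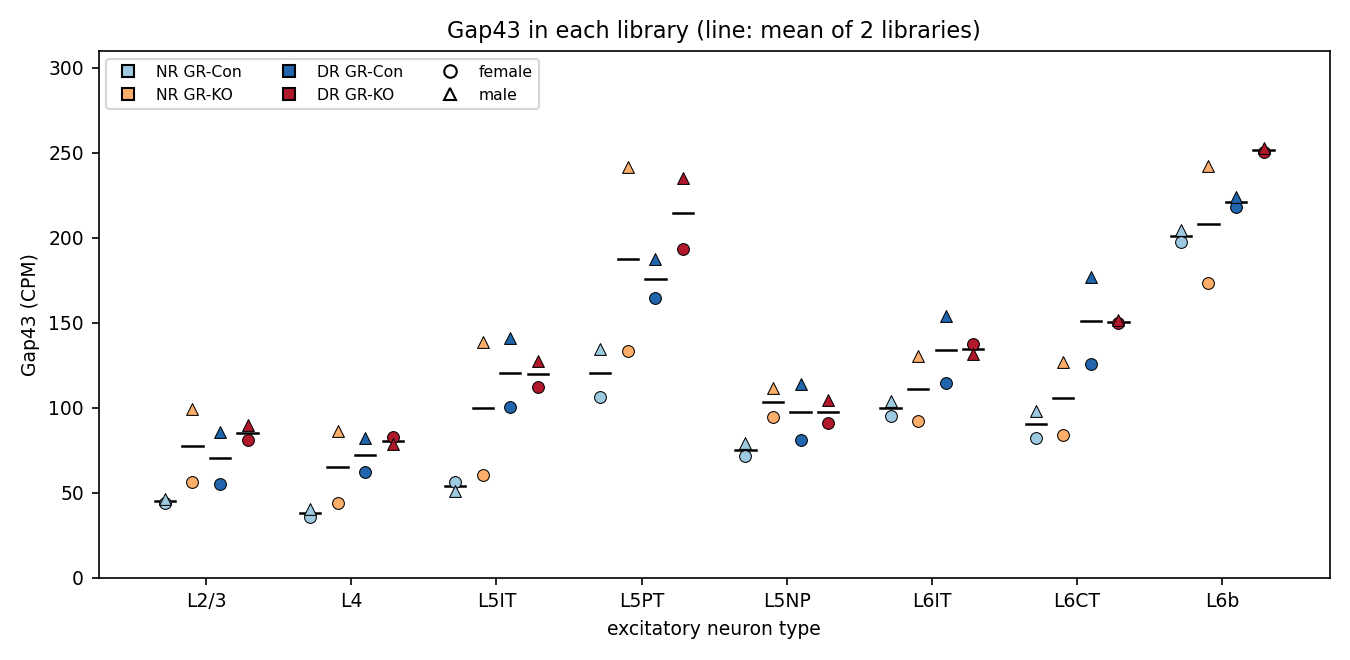
Gap43 level (CPM) in each of the 8 libraries in the 8 excitatory neuron types, with circles for females, triangles for males, colours for the 4 groups and lines for the mean of 2 libraries. In L5IT, DR GR-Con libraries sit at 100.3 and 141 CPM, above the 56.3 and 51.2 CPM of NR GR-Con, and the NR GR-KO libraries are spread from 60.8 to 138 CPM.

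L4 neurons, the main target of visual input from the thalamus, showed the same for Gap43, with 35.6 and 40.2 CPM in NR GR-Con, 43.9 and 86.6 in NR GR-KO, 62.4 and 82.3 in DR GR-Con and 82.7 and 78.7 in DR GR-KO. The log2 fold change of DR GR-Con over NR GR-Con was 0.95 ± 0.19, with an adjusted p of 1.68e-04 by the likelihood ratio test of edgeR and 0.12 by the quasi-likelihood F-test. Without the NR GR-Con female it was 0.87 ± 0.28 and no longer passed, at an adjusted p of 0.088. In the other excitatory types the fold changes were 0.75 ± 0.25 in L6CT (adjusted p = 0.075 by edgeR), 0.60 ± 0.25 in L2/3 (0.13), 0.54 ± 0.17 in L5PT (0.054), 0.42 ± 0.22 in L6IT (0.64) and 0.37 ± 0.19 in L5NP (0.64), and in L6b, where Gap43 was highest, 0.13. None of these 6 passed by the edgeR likelihood ratio test, whereas DESeq2 called Gap43 higher in 4 of the 8 excitatory types, L5IT and L4 among them. The fold change was above 0 in 15 of 15 cell types, and both DR GR-Con libraries were above both NR GR-Con libraries in 14 of the 15, all but OPC. Over all genes and types, 20.8% of pairs were separated in that way, and among the 9 genes 36 of 135 (26.7%). The cell types of a comparison share the same libraries, so here and below such counts over types are not independent observations.

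Dpysl3 in L2/3 neurons was at 9.07 and 7.34 CPM in NR GR-Con, 10.7 and 16.9 in NR GR-KO, 15.8 and 15.2 in DR GR-Con and 9.88 and 16.3 in DR GR-KO. The DR GR-Con libraries were close together and above both NR GR-Con libraries, with a log2 fold change of 0.87 ± 0.18 and an edgeR adjusted p of 8.31e-05 (0.043 by the quasi-likelihood F-test). Without the NR GR-Con male it was 0.71 ± 0.26, with an adjusted p of 0.149. In L6CT neurons Dpysl3 was at 15.4 and 14.6 CPM in NR GR-Con, 15.1 and 12 in NR GR-KO, 22.4 and 21.1 in DR GR-Con and 16.3 and 18.6 in DR GR-KO. Here the log2 fold change was 0.53 ± 0.16 with an edgeR adjusted p of 0.036 (0.15 by the quasi-likelihood F-test), and it was lost without either NR GR-Con library, at an adjusted p of 0.72 without the female and 1.0 without the male.

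Stmn4 in Sst neurons was at 10.6 and 13.01 CPM in NR GR-Con, 16.6 and 18.1 in NR GR-KO, 20.6 and 18.4 in DR GR-Con and 14.2 and 15.1 in DR GR-KO. NR GR-Con was the lowest group there, and the log2 fold change of DR GR-Con over it was 0.71 ± 0.19 (edgeR adjusted p = 0.041, 0.24 by the quasi-likelihood F-test). The call was lost in each of the 4 fits that left out a library, with an adjusted p of up to 0.54. In the excitatory types Stmn4 had fold changes below 0 in 8 of 8, with a median of -0.32, and 0 of them passed.

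**Figure D3:**
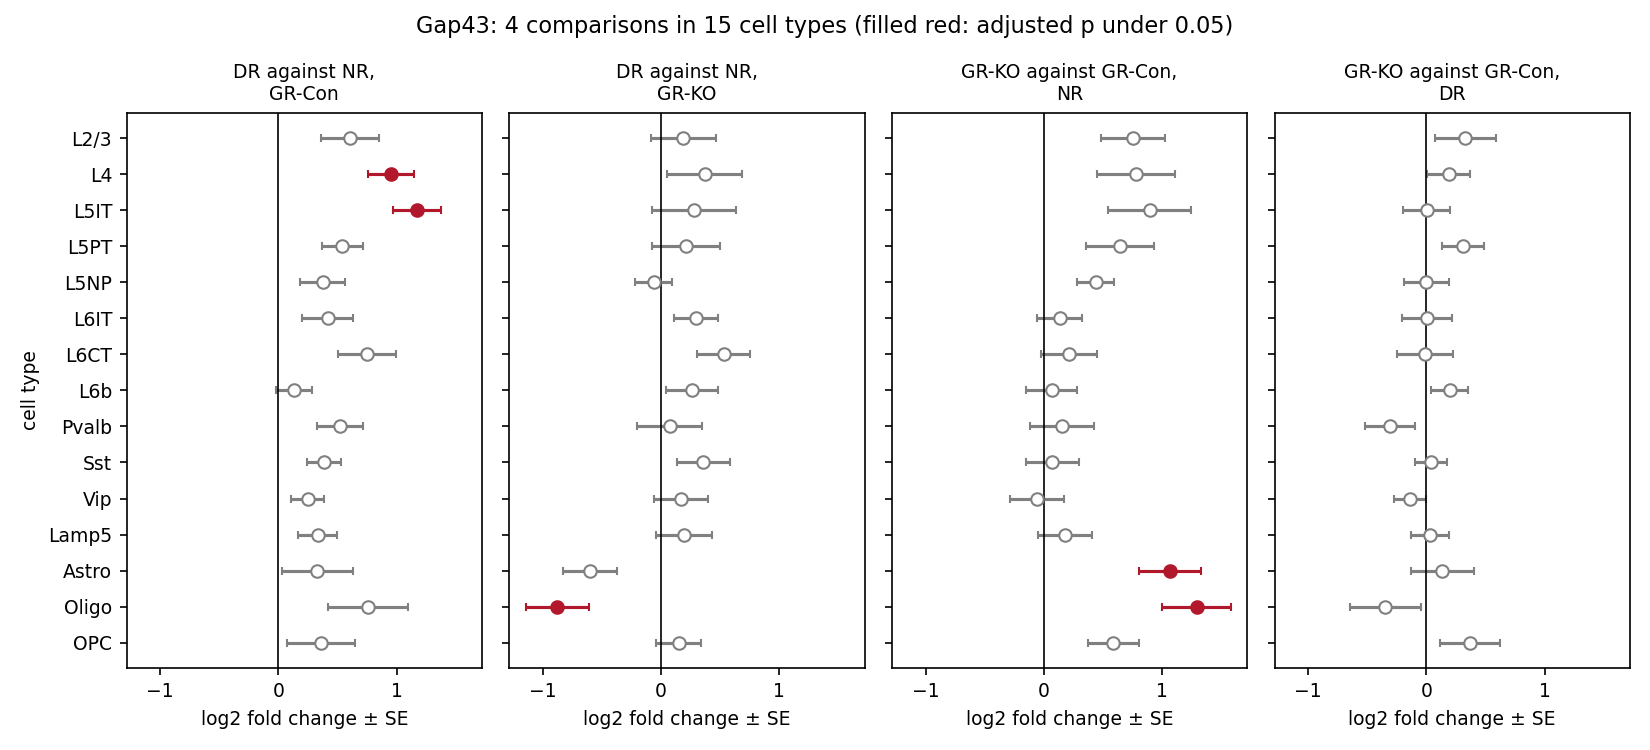
Log2 fold change of Gap43 with its standard error in 15 cell types (rows), for DR against NR in GR-Con and in GR-KO and for the genotype difference (GR-KO over GR-Con) under NR and under DR (panels). Filled red points passed the edgeR likelihood ratio test at an adjusted p under 0.05, namely L4 and L5IT in the first panel, oligodendrocytes in the second, and astrocytes and oligodendrocytes in the third. All 15 points of the first panel lie above 0.

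By the edgeR likelihood ratio test, the same rearing contrast in GR-KO animals gave calls mainly in glia and mostly downward. This contrast set the 2 deepest libraries against the 2 shallowest. Medians were 29223 and 22827.5 UMIs per nucleus in NR GR-KO and 14861 and 14928.5 in DR GR-KO. In astrocytes they were 12123.5 and 8662 against 5227 and 4889. Depth and group cannot be told apart here, and the part of depth was not tested. Of 155 pairs, 16 were lower and 1 was higher in DR GR-KO than in NR GR-KO, where the edgeR likelihood ratio test called 1.96% of all pairs lower and 1.69% higher. In astrocytes, oligodendrocytes and OPC, 11 of the 27 pairs were lower, against 1.91% of all genes in those types. Of these 27 pairs, the quasi-likelihood F-test called 3 lower and DESeq2 1. The quasi-likelihood F-test called 5 pairs of the 155 (0.857% of all pairs) and DESeq2 4 (2.53%), and with sex as a term 21 were called (6.18% of all pairs). Median log2 fold changes of the members were -0.21 over all types and -0.49 in the 3 glial types, against -0.01 and 0.00 for all genes. Both DR GR-KO libraries were below both NR GR-KO libraries in 85 of 155 pairs (54.8%), where all genes had 27.6%.

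Stmn2 in OPC had the lowest p among the stathmins, with 17.7 and 26.8 CPM in NR GR-Con, 49.0 and 42.2 in NR GR-KO, 26.7 and 13.8 in DR GR-Con and 17.9 and 17.8 in DR GR-KO. NR GR-KO stood above the other 3 groups, and DR GR-KO was lower than it by a log2 fold change of -1.30 ± 0.22 (edgeR adjusted p = 1.45e-05, 6.03e-04 by the quasi-likelihood F-test). DESeq2 did not make this call. In the fits without 1 library the log2 fold change was -1.42 to -1.19. Stmn3 in OPC was at 45.7 and 47.1 CPM in NR GR-Con, 53.2 and 63.7 in NR GR-KO, 39.6 and 27.2 in DR GR-Con and 30.9 and 42.6 in DR GR-KO. It differed between DR GR-KO and NR GR-KO by -0.64 ± 0.19 (edgeR adjusted p = 0.038), a call kept in 1 of the 4 fits that left out a library, the one without the NR GR-KO female, and otherwise at an adjusted p of up to 0.67. As described above, both are stathmins with N-terminal cysteines whose highest levels were in neurons.

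In astrocytes, 4 members fell in DR GR-KO. Stmn1 was at 34.8 and 43.8 CPM in NR GR-Con, 47.2 and 51.3 in NR GR-KO, 26.7 and 25.9 in DR GR-Con and 31.3 and 27.6 in DR GR-KO, and its log2 fold change of -0.66 ± 0.15 passed by the edgeR likelihood ratio test (adjusted p = 8.63e-04) and by the quasi-likelihood F-test (0.0202). It was lost without the DR GR-KO male (-0.55 ± 0.20, edgeR adjusted p = 0.31) and with all 8 libraries in 1 fit. Stmn4 was at 8.22 and 13.1 CPM in NR GR-Con, 13.6 and 16.4 in NR GR-KO, 8.1 and 8.27 in DR GR-Con and 8.07 and 8.24 in DR GR-KO (-0.79 ± 0.21, edgeR adjusted p = 0.0089). Stmn2 was at 19.3 and 24.7, 28.5 and 38.5, 21.1 and 17.7, and 18.2 and 23.1 CPM in the same order of groups (-0.62 ± 0.20, edgeR adjusted p = 0.049). In each case the NR GR-KO libraries were the highest of the 4 groups. Basp1 was at 35.3 and 45.3 CPM in NR GR-Con, 48.2 and 61.6 in NR GR-KO, 36.5 and 26.4 in DR GR-Con and 36.2 and 34.6 in DR GR-KO (-0.55 ± 0.15, edgeR adjusted p = 0.0198). For Stmn2, Stmn4 and Basp1 the quasi-likelihood adjusted p was 0.099, 0.054 and 0.055, and each of these 3 was called in 1 of the 4 fits that left out a library.

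In oligodendrocytes, 5 members fell and 1 rose. Stmn4, the stathmin that was highest in this cell type, was at 101 and 86.2 CPM in NR GR-Con, 105 and 99.8 in NR GR-KO, 64.7 and 85.3 in DR GR-Con and 68.6 and 78.1 in DR GR-KO. Its log2 fold change was -0.46 ± 0.14 (edgeR adjusted p = 0.042, 0.082 by the quasi-likelihood F-test). Here NR GR-KO was next to NR GR-Con and not apart from the other groups. Gap43 was at 4.52 and 6.33 CPM in NR GR-Con, 11.2 and 16.6 in NR GR-KO, 8.08 and 10.7 in DR GR-Con and 7.62 and 7.27 in DR GR-KO, on 23 to 151 UMIs per library (-0.88 ± 0.27, edgeR adjusted p = 0.032). Basp1 was at 32.4 and 43.7, 46.4 and 52.4, 32.1 and 28.3, and 31.7 and 34.3 CPM in that order of groups (-0.56 ± 0.16, edgeR adjusted p = 0.0182). Both were highest in NR GR-KO.

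Stmn2 in oligodendrocytes was at 17.9 and 15.4 CPM in NR GR-Con, 21.6 and 29.3 in NR GR-KO, 15.4 and 9.11 in DR GR-Con and 15.6 and 15.5 in DR GR-KO (-0.69 ± 0.21, edgeR adjusted p = 0.039). Stmn3 was at 18.7 and 25.9, 28.3 and 33.0, 19.0 and 13.9, and 18.3 and 20.0 CPM (-0.66 ± 0.18, edgeR adjusted p = 0.0160). The NR GR-KO libraries were again the highest. Dpysl3 went the other way, with 5.5 and 5.65 CPM in NR GR-Con, 6.85 and 4.73 in NR GR-KO, 15.2 and 6.36 in DR GR-Con and 12.05 and 11.1 in DR GR-KO (1.02 ± 0.25, edgeR adjusted p = 0.0040). None of these 6 oligodendrocyte calls passed the quasi-likelihood F-test, whose adjusted p ran from 0.079 to 0.145. Without either DR GR-KO library none of the 6 passed by the edgeR likelihood ratio test, while without the NR GR-KO female all 6 did.

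Neuron markers moved with these glial values. The summed level of 6 neuron markers (Snap25, Syt1, Rbfox3, Slc17a7, Gad1 and Gad2) in astrocytes was 298 to 363 CPM in NR GR-Con, 533 to 541 in NR GR-KO, 285 to 457 in DR GR-Con and 309 to 320.4 in DR GR-KO. In oligodendrocytes it was 223 to 246, 417 to 505, 208 to 342 and 229 to 237 CPM, and in OPC 635 to 715, 879.7 to 951, 605 to 712 and 585 to 639 CPM. NR GR-KO was the highest group in all 3 cell types. Single markers were lower in both DR GR-KO than in both NR GR-KO libraries for 6 of 6 in astrocytes, 5 of 6 in oligodendrocytes and 6 of 6 in OPC. Excitatory neurons held 6148 to 6508.5 CPM of the same markers. Neither the source of these transcripts nor their part in the glial results was tested. Set against the markers, Stmn2 in OPC was at 5.15 and 4.80 UMIs per 100 marker UMIs in NR GR-KO and 2.79 and 3.05 in DR GR-KO, whereas in oligodendrocytes it was at 4.27 and 7.02 and at 6.80 and 6.55. In OPC, DR GR-KO was 0.90-fold of NR GR-KO for Gad1 and 0.64-fold for Rbfox3, so the ratio there depends on the markers summed. Of the 11 lower glial calls, this ratio was lower in both DR GR-KO than in both NR GR-KO libraries for 1, Stmn2 in OPC, and it overlapped for 7. It was higher for the other 3, all in oligodendrocytes, namely Basp1 (9.18 and 12.6 against 13.8 and 14.5), Stmn3 (5.60 and 7.92 against 7.96 and 8.43) and Stmn4 (20.7 and 23.9 against 29.9 and 32.9). In excitatory neurons the ratio was lower than in these glia, with 1.57 to 2.01 for Stmn2, and for all 11 pairs the 8 glial values were above the 8 values in excitatory neurons. Excitatory neurons hold far more of the markers, so this concerns levels only. It cannot tell where the differences between groups came from.

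**Figure D4:**
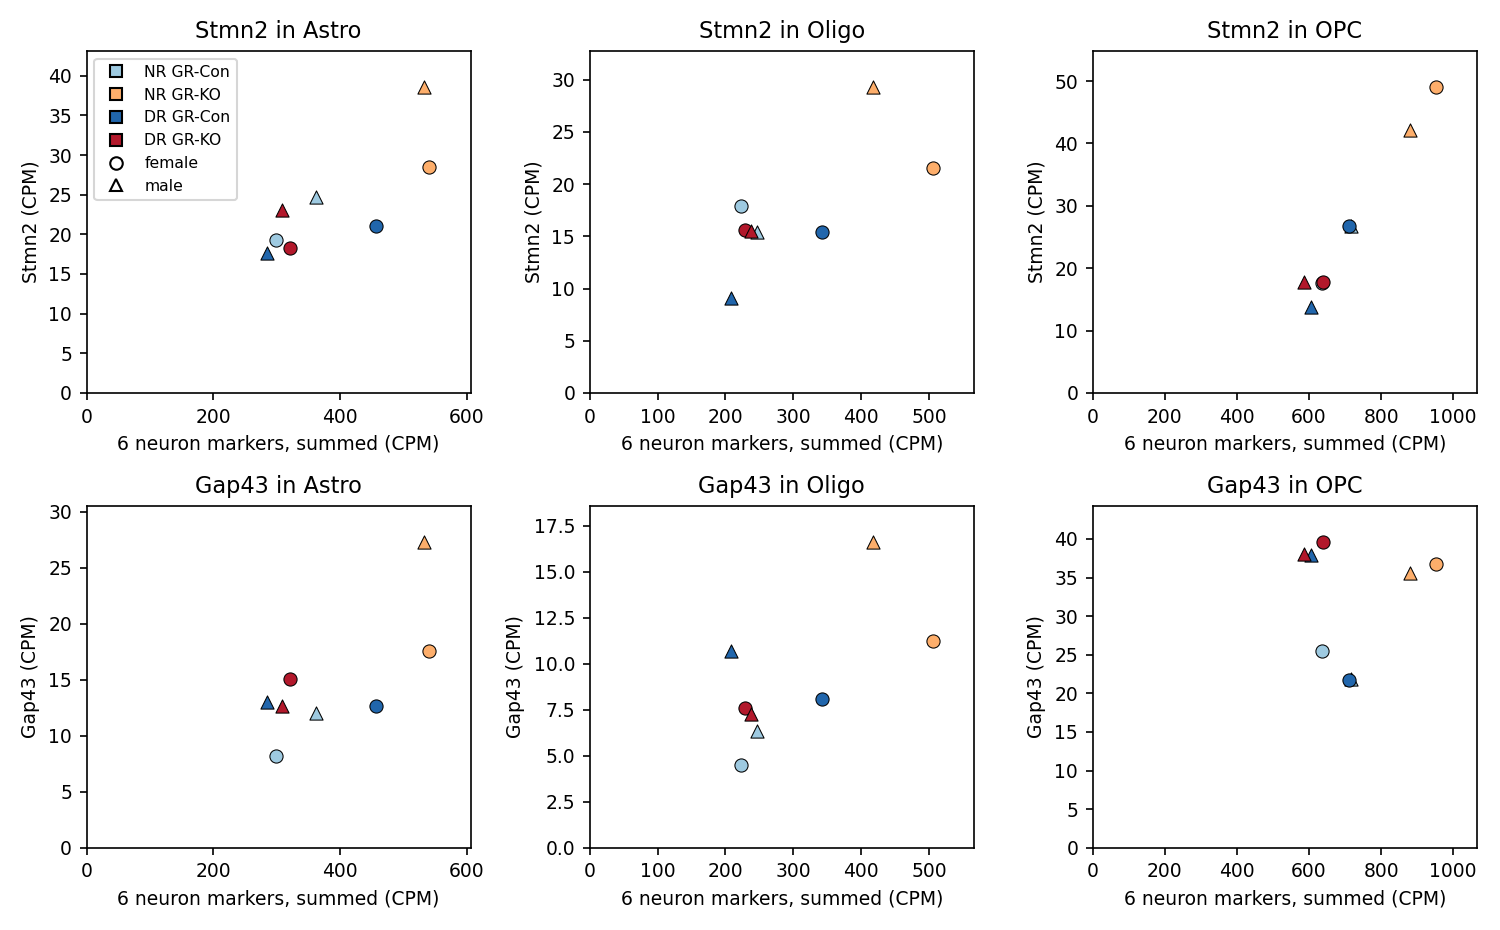
Level of Stmn2 (top) and Gap43 (bottom) in CPM against the summed CPM of 6 neuron markers, in astrocytes, oligodendrocytes and OPC, with 1 point per library, circles for females, triangles for males and colours for the 4 groups. The NR GR-KO libraries have the highest marker sums in each cell type, 533 to 541 CPM in astrocytes and 417 to 505 CPM in oligodendrocytes. They also have the highest Stmn2 levels.

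Vascular cells held 3 further downward calls in this contrast, on few nuclei. Their depth differed too, with medians in VLMC of 7925 and 11021 UMIs per nucleus in NR GR-KO against 3907 and 3656 in DR GR-KO. In SMC-Peri the medians were 5603 and 25312.5 against 2485 and 2475. The part of depth was not tested. Basp1 in VLMC was at 94.2 and 129.6 CPM in NR GR-Con, 94.8 and 138 in NR GR-KO, 162 and 49.4 in DR GR-Con and 30.0 and 18.04 in DR GR-KO, the last on 9 and 4 UMIs. Its log2 fold change was -2.43 ± 0.47 (edgeR adjusted p = 4.64e-06, 0.0072 by the quasi-likelihood F-test) and the call was kept without each library. Stmn2 in VLMC was at 47.1 and 51.0, 75.3 and 66.4, 182 and 27.7, and 36.7 and 22.5 CPM (-1.47 ± 0.43, edgeR adjusted p = 0.0055), and its call was lost without the DR GR-KO male (0.24) or the NR GR-KO female (0.082). Basp1 in SMC-Peri was at 188 and 116 CPM in NR GR-Con, 124 and 158 in NR GR-KO, 259 and 121 in DR GR-Con and 46.3 and 0 in DR GR-KO, the last on 6 and 0 UMIs (-2.33 ± 0.66, edgeR adjusted p = 0.037, 0.55 by the quasi-likelihood F-test). This call was lost without the DR GR-KO male (edgeR adjusted p = 0.65) or the NR GR-KO male (0.28), and without the DR GR-KO female the fitted value was -8.00 against a library at 0 UMIs, which is no bound. The DR GR-Con female had under 10 nuclei of both cell types, with 3 in VLMC and 1 in SMC-Peri. The NR GR-Con male had 7 nuclei in SMC-Peri. Neuron markers moved here too, from 3047 to 4038 CPM in NR GR-KO to 487 to 888 CPM in DR GR-KO in VLMC and from 4087 to 4688 CPM to 548 to 3147 CPM in SMC-Peri. In VLMC, DR GR-KO was 0.20-fold of NR GR-KO for Snap25, 0.19-fold for Syt1 and for Slc17a7, and 0.17-fold for Rbfox3. Gad1 was at 0.47-fold and Gad2 at 0.75-fold, with overlapping libraries for Gad2. The part of these markers in the 3 calls was not tested.

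The remaining calls of this contrast were in L4 neurons. Dcx was at 218 and 199 CPM in NR GR-Con, 206 and 196 in NR GR-KO, 169.6 and 196 in DR GR-Con and 142 and 127 in DR GR-KO, on 3685 to 13865 UMIs per library. DR GR-KO was the lowest group, and its log2 fold change over NR GR-KO was -0.52 ± 0.15 (edgeR adjusted p = 0.0146, 0.060 by the quasi-likelihood F-test and 8.05e-04 by DESeq2). Of the 4 fits that left out a library, only the one without the NR GR-KO male kept the call, and the edgeR adjusted p was 0.22 without the DR GR-KO female, 0.57 without the DR GR-KO male and 0.050 without the NR GR-KO female. Dpysl3 was at 19.0 and 15.8 CPM in NR GR-Con, 19.9 and 18.3 in NR GR-KO, 18.5 and 17.6 in DR GR-Con and 10.4 and 13.5 in DR GR-KO (-0.62 ± 0.18, edgeR adjusted p = 0.0177, 0.080 by the quasi-likelihood F-test), and it was lost without the DR GR-KO female (0.61) or the DR GR-KO male (0.117). DR GR-KO was again the only group apart. Against DR GR-Con, the fold changes in L4 were -0.41 ± 0.16 for Dcx (edgeR adjusted p = 0.27) and -0.57 ± 0.18 for Dpysl3 (0.083), and neither passed. Gap43 in L5IT and L4 was not called in this contrast, at 0.28 ± 0.36 and 0.37 ± 0.32, where the NR GR-KO libraries were far apart.

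**Figure D5:**
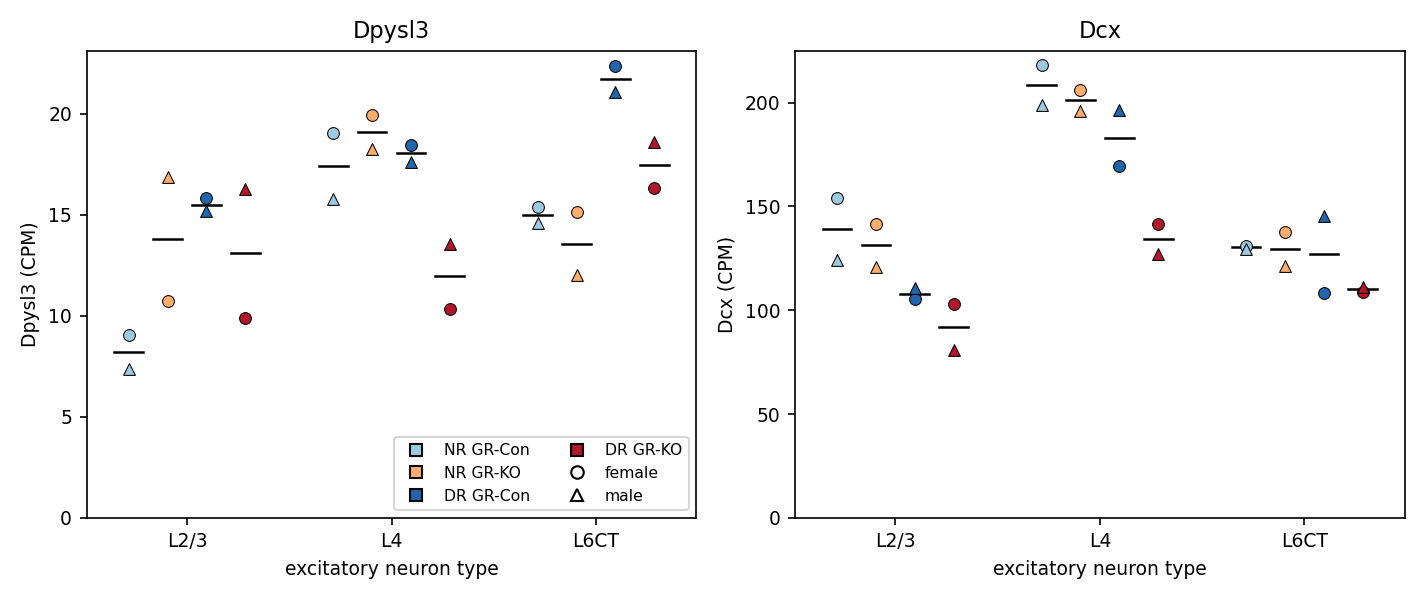
Levels (CPM) of Dpysl3 (left) and Dcx (right) in each library in L2/3, L4 and L6CT neurons, with circles for females, triangles for males, colours for the 4 groups and lines for the mean of 2 libraries. In L4, the DR GR-KO libraries are the lowest for both genes, with 10.4 and 13.5 CPM of Dpysl3 and 142 and 127 CPM of Dcx.

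The third question was what loss of GR in astrocytes did to these genes under each rearing. In NR, 3 of 151 pairs were called, all higher in GR-KO and all in glia, where the edgeR likelihood ratio test called 0.491% of all pairs higher, 0.313% lower and, in the glial types, 1.94% higher. The quasi-likelihood F-test called 2 (0.361% of all pairs) and DESeq2 1 (0.433%), and with sex as a term 9 were called, where the share over all pairs also rose, to 1.84%. Gap43 in astrocytes went from 10.1 ± 2.71 to 22.4 ± 6.83 CPM, a log2 fold change of 1.07 ± 0.26 (edgeR adjusted p = 0.0014, 0.044 by the quasi-likelihood F-test). It no longer passed without the NR GR-Con female (0.83 ± 0.30, adjusted p = 0.093) or the NR GR-KO male (0.74 ± 0.26, adjusted p = 0.065). Its values in the 8 libraries were 8.22 and 12.1 CPM in NR GR-Con, 17.6 and 27.3 in NR GR-KO, 12.7 and 12.98 in DR GR-Con and 15.03 and 12.6 in DR GR-KO, so that NR GR-KO was apart from the other 3 groups.

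Gap43 in oligodendrocytes went from 5.43 ± 1.29 to 13.9 ± 3.8 CPM (1.29 ± 0.29, edgeR adjusted p = 0.0014, 0.16 by the quasi-likelihood F-test), and Stmn2 in OPC from 22.2 ± 6.45 to 45.6 ± 4.8 CPM (0.96 ± 0.22, edgeR adjusted p = 0.0071, 0.044 by the quasi-likelihood F-test). Without the NR GR-Con female the oligodendrocyte call was lost, at an adjusted p of 0.13, and Stmn2 in OPC was lost without that library (0.32) or the NR GR-KO female (0.12). In the 3 glial types 26 of 27 fold changes were above 0, with a median of 0.33 against 0.00 for all genes. Neuron markers were higher in both NR GR-KO than in both NR GR-Con libraries for 6 of 6 in astrocytes, 5 of 6 in oligodendrocytes and 5 of 6 in OPC, where Gad1 was lower. Per 100 marker UMIs, Gap43 in astrocytes was at 2.75 and 3.32 in NR GR-Con and 3.25 and 5.12 in NR GR-KO, and Gap43 in oligodendrocytes at 2.02 and 2.57 and at 2.22 and 3.99, ranges that overlap. Stmn2 in OPC was at 2.78 and 3.75 in NR GR-Con and 5.15 and 4.80 in NR GR-KO, which do not overlap. The markers did not move alike there. Gad1, at a mean of 75.7 CPM in NR GR-Con OPC against 6.01 in NR GR-Con astrocytes, was 0.88-fold in NR GR-KO OPC. Rbfox3 was 2.22-fold. The OPC ratio thus depends on which markers are summed. The part of neuron-marker transcripts in these 3 calls was not tested. NR GR-KO was also the deeper group, at medians of 29223 and 22827.5 UMIs per nucleus against 15884 and 17759.5 in NR GR-Con. The part of depth was not tested either.

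In excitatory neurons of NR animals, 0 of 72 pairs passed by the edgeR likelihood ratio test, the quasi-likelihood F-test or DESeq2. With 0.242% of all pairs in these types called higher and 0.122% lower by the likelihood ratio test, a count of 0 is near the background, and an unadjusted p under 0.05 was reached by 7 of the 72 (9.72%, against 4.61% of all pairs). Gap43 had fold changes above 0 in 8 of 8 types, with a median of 0.54, and the largest was 0.90 ± 0.35 in L5IT (edgeR adjusted p = 0.58). The NR GR-KO male exceeded the NR GR-KO female in 8 of 8 excitatory types, by a median of 0.69 on the log2 scale (0.24 to 1.18), against medians of 0.14 in NR GR-Con, 0.46 in DR GR-Con and 0.08 in DR GR-KO. The female was next to the NR GR-Con libraries and the male next to the DR libraries in L5IT and L4. These 2 libraries also differed in depth and nuclei. In L5IT the female had 255 nuclei at a median of 39567 UMIs, and the male 553 at 29008. The part of these differences was not tested. Over all 17 types, both NR GR-KO libraries were above both NR GR-Con libraries for Gap43 in 8, and for the 9 genes in 69 of 151 pairs (45.7%), where all genes had 19.2%. The study, by contrast, names Gap43 in a set of axonal sprouting genes higher in excitatory neurons after astrocyte GR loss. It used the same edgeR test and threshold, while the filter, scaling and minimum of nuclei were set here. The reason for this difference was not tested.

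In DR, 0 of 135 pairs were called by the edgeR likelihood ratio test, which called 0.319% of all pairs higher and 0.194% lower. The quasi-likelihood F-test (0.00431% of all pairs) and DESeq2 (0.372%) called 0 as well, and with sex as a term 1 was called (1.16%). An unadjusted p under 0.05 was reached by 7 pairs in the likelihood ratio test, 12 in the quasi-likelihood F-test and 7 in DESeq2, or 5.19%, 8.89% and 5.19% of the members' pairs against 6.16%, 7.10% and 3.26% of all pairs. Gap43 in L5IT neurons was at 121 ± 28.7 CPM in DR GR-Con and 120.0 ± 10.9 in DR GR-KO, a log2 fold change of 0.00 ± 0.20. Dpysl3 and Dcx were below 0 in 8 of 8 excitatory types each, with medians of -0.22 and -0.22, and Stmn4 in 4 of 4 inhibitory types fitted, with a median of -0.33. None of these passed.

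Whether the genotype difference itself depended on rearing was tested as the NR difference minus the DR difference over all 8 libraries. Of 135 pairs 1 was called, Gap43 in oligodendrocytes, at 1.63 ± 0.43 on the log2 scale (edgeR adjusted p = 0.039), where 0.139% of all pairs were called above 0 and 0.0423% below. It did not pass the quasi-likelihood F-test (adjusted p = 0.42), which called 0.00276% of all pairs, nor DESeq2 (0.37), which called 0.13%. With sex as a term 1 of the members' pairs was called, and 0.59% of all pairs. For Gap43 in L5IT the value was 0.89 ± 0.46 (edgeR adjusted p = 0.64), and for Dpysl3 and Dcx in L4 it was 0.69 ± 0.24 (0.34) and 0.35 ± 0.21 (0.97). Estimates were above 0 in 110 of 135 pairs, with a median of 0.20 against 0.01 for all genes.

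Other genes of the growth cone were read in the same fits. Of 24 genes of its cytoskeleton and their regulators, 9 pairs were higher and 2 lower of 355 for DR against NR in GR-Con, 7 higher and 35 lower of 400 in GR-KO, 7 higher and 0 lower of 390 for GR-KO over GR-Con under NR, and 0 higher and 1 lower of 356 under DR. Over all genes the likelihood ratio test called, in the same order, 1.41% higher and 0.84% lower, 1.69% and 1.96%, 0.491% and 0.313%, and 0.319% and 0.194%. The quasi-likelihood F-test called 3 higher and 0 lower for DR against NR in GR-Con, 0 and 12 in GR-KO, and 0 pairs of the list in either genotype comparison. DESeq2 called 8 higher and 3 lower for DR against NR in GR-Con and 8 and 14 in GR-KO. For GR-KO over GR-Con it called 1 and 0 under NR and 0 and 0 under DR. Over all genes and in the same order of comparisons, the quasi-likelihood F-test called 0.495%, 0.857%, 0.361% and 0.00431% in either direction. DESeq2 called 1.51%, 2.53%, 0.433% and 0.372%. Without 1 library, the 42 calls in GR-KO became 6 (without the DR GR-KO male) to 65 (without the NR GR-KO male), the 11 in GR-Con 4 (without the NR GR-Con male) to 19 (without the DR GR-Con male), the 7 under NR 0 (without either NR GR-Con library) to 21 (without the NR GR-KO female), and the 1 under DR 0 (without either DR GR-KO library) to 14 (without the DR GR-Con male). Their median log2 fold changes were 0.01, -0.01, 0.06 and 0.06, against 0.00, -0.01, 0.00 and -0.01 over all genes. No share of all genes is given for the fits without 1 library, so those counts are not results about the list. In L6CT neurons Dpysl5, a relative of Dpysl3, rose in DR in both genotypes, from 24 ± 0.238 to 53.7 ± 4.61 CPM in GR-Con (1.16 ± 0.18, edgeR adjusted p = 3.01e-08, 0.085 by the quasi-likelihood F-test) and from 27.6 ± 10.6 to 60.5 ± 9.18 CPM in GR-KO (1.15 ± 0.29, adjusted p = 0.0032, 0.0998 by the quasi-likelihood F-test). Sox11, a transcription factor of axon growth, rose there as well, by 0.61 ± 0.16 in GR-Con (edgeR adjusted p = 0.0093) and 0.77 ± 0.18 in GR-KO (0.0014), with 0.13 and 0.074 by the quasi-likelihood F-test. Nrn1 (neuritin) fell in L2/3 neurons in DR GR-Con (-0.53 ± 0.17, edgeR adjusted p = 0.023) and was lower in GR-KO than in GR-Con in L6IT neurons of DR animals (-0.59 ± 0.16, adjusted p = 0.041), with 0.093 and 0.59 by the quasi-likelihood F-test. Tubb3, the neuronal beta-tubulin, went from 40.6 ± 0.921 CPM in NR GR-Con to 17.9 ± 4.33 in DR GR-Con in oligodendrocytes (-1.19 ± 0.24, edgeR adjusted p = 9.02e-04), with 35.0 ± 2.62 and 33.4 ± 2.94 CPM in NR and DR GR-KO and an interaction of -1.15 ± 0.28 (adjusted p = 0.0173), the only call of the list there out of 357. Neither passed the quasi-likelihood F-test, at an adjusted p of 0.22 and 0.31.

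The microtubule-associated Mapt, the actin-binding Dbn1 and Shtn1 (shootin) had the largest falls from NR to DR in GR-KO, all in VLMC, at -2.19 ± 0.36, -1.84 ± 0.45 and -1.78 ± 0.39 (edgeR adjusted p = 6.20e-08, 6.13e-04 and 9.53e-05), the cells in which neuron markers were lower as well. Map1b rose in astrocytes of NR GR-KO animals, from 33.7 ± 1.87 to 55.0 ± 14.4 CPM (0.63 ± 0.19, edgeR adjusted p = 0.0184, 0.071 by the quasi-likelihood F-test). All 6 neuron markers were higher in these astrocytes too, by 1.61-fold to 1.82-fold, and their part in the Map1b value was not tested. Of 13 kinases and calmodulins that act on these proteins, 3 pairs were higher and 1 lower of 195 for DR against NR in GR-Con, 3 and 11 of 227 in GR-KO, 1 and 1 of 220 for GR-KO over GR-Con under NR, and 0 of 195 under DR and for the interaction, to be read against the same shares of all genes. The quasi-likelihood F-test called 2 higher and 0 lower, 1 and 7, 0 and 1, and 0 for the last 2. DESeq2 called 2 higher and 1 lower, 6 and 6, 0 and 1, 2 and 0, and 0 for the interaction. The counts of each test are to be read against the shares of all genes by that test, given above. Without 1 library, the 14 calls in GR-KO became 0 (without the DR GR-KO male) to 31 (without the NR GR-KO female), the 4 in GR-Con 0 (without the NR GR-Con female) to 5, the 2 under NR 0 (without the NR GR-Con female) to 8 (without the NR GR-KO female), and the 0 under DR up to 6 (without the DR GR-Con male). Their medians in that order of the first 4 comparisons were -0.03, -0.05, 0.09 and 0.10. The counts without 1 library again stand without a share of all genes. Prkca, the alpha isoform of protein kinase C, was lower in astrocytes of NR GR-KO animals, at 169.8 ± 7.14 against 262 ± 50.1 CPM (-0.69 ± 0.18, edgeR adjusted p = 0.0030, 0.0217 by the quasi-likelihood F-test). Cdk5r1, the activator of Cdk5, fell in L2/3 neurons of DR GR-Con (-0.39 ± 0.13, edgeR adjusted p = 0.045, 0.065 by the quasi-likelihood F-test).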

How the data were processed

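Nuclei were sorted as DRAQ5-positive and GFP-negative by the authors, who, per the labels and the methods of the study, used Cell Ranger 8.0.1 on mm10 with a custom annotation that held eGFP, and Seurat 5.3.0, DoubletFinder and Louvain clustering for the cell types. They removed nuclei outside set limits of gene counts and clusters without markers, which can remove cells unevenly between libraries. The deposited matrix holds UMI counts, not normalized, and the column sums equalled the deposited UMI number for all 102330 nuclei. Deposited cell types were used as given. Doublets were treated only by the authors.

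UMI counts were summed per library and cell type and fitted in R 4.3.3 with edgeR 4.0.16 (filterByExpr, TMM, glmFit, glmLRT, two-sided), over the libraries compared, where each had at least 10 nuclei, with Benjamini-Hochberg adjustment over all genes of a cell type and calls at an adjusted p under 0.05. Microglia and chandelier cells were in no fit. The SE was obtained from the fold change and the square root of the likelihood ratio statistic. The methods of the study state the glmLRT test for the genotype comparison under NR, and its use for the other comparisons, the filter, the scaling and the minimum of nuclei were set here. The quasi-likelihood F-test and DESeq2 1.42.0 are alternatives. With 2 libraries per group, p-values cover the spread between these libraries only, and fewer cells of a state cannot be told apart from less RNA per cell in summed counts. Scripts were tested on simulated data, on which both edgeR tests made a larger share of false calls than their threshold names, the likelihood ratio test more than the quasi-likelihood F-test, so single calls near the threshold are less certain than their adjusted p states. Coordinates and coding sequences are from GENCODE vM21 (GRCm38). Reads of Gap43 and Stmn1 can be shared with the small RNA genes Mir6540 and Gm23634 inside them.

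All 9 members are named, with each library's value where a member was called. From the lists of 24 and 13 genes, those called at 20 CPM or more with the largest fold changes are named, at most 3 in each direction of a comparison, and so are the 3 genes most like each member, except for genes that are not reported here. The members, lists and tests were chosen with earlier results of these data known.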

Additional observations from a re-analysis of the deposited data

Results flagged for a closer look

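For Gap43 in oligodendrocytes, the response to genotype differed between the rearing conditions by 1 of the 3 tests run. Subtracting the GR-KO over GR-Con difference of DR from that of NR gave 1.63 on the log2 scale with an SE of 0.43 and an adjusted p of 0.039 by the edgeR likelihood ratio test, and the call was not made by the quasi-likelihood F-test (0.42) or by DESeq2 (0.37). Of the 8 fits that left out 1 library, 2 passed, and their adjusted p ran from 0.0068 without the NR GR-KO female to 0.44 without the DR GR-KO male. Levels were low, with 23 to 151 UMIs per library, and the summed neuron markers in the same nuclei were highest in NR GR-KO, at 417 to 505 CPM. Their part in this difference was not tested. Groups of 2 libraries are too small to look for single outlying libraries.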

How the results depend on the processing

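The numbers of called pairs of a member and a cell type moved with the processing, and the direction of none of the 26 calls was reversed under any alternative run. For the genotype difference under NR, 3 pairs were called, 1 by DESeq2, 9 with sex as a term and 0 to 11 without 1 library (lowest without the NR GR-Con female, highest without the NR GR-KO female). Under DR, 0 were called, 1 with sex as a term and 0 to 4 without 1 library (highest without the DR GR-Con female). For DR against NR in GR-Con, 5 were called, 2 by the quasi-likelihood F-test, 3 with no filter on low counts, 9 with sex as a term and 2 to 10 without 1 library (lowest without the NR GR-Con female, highest without the DR GR-Con female). In GR-KO, 17 were called, 5 by the quasi-likelihood F-test, 4 by DESeq2, 3 with all 8 libraries in 1 fit and 4 to 24 without 1 library (lowest without the DR GR-KO male, highest without the NR GR-KO female). For the interaction 1 was called, 0 by the quasi-likelihood F-test, 0 by DESeq2 and 0 to 3 without 1 library. The order of cell types had 0 passing pairs over 20 types and 30 over the 15 types with enough nuclei, an alternative chosen after seeing the data. The cause of these shifts was not tested. No share of all pairs is given for the fits without 1 library, with no filter or with all 8 libraries in 1 fit. Those counts cannot be set against a background and are not results about the members. Of the 26 calls, the quasi-likelihood F-test kept 9, DESeq2 8, RLE normalization 25, no filter 19 and sex as a term 24, and 10 of the 22 that could be refitted with all 8 libraries were kept. The 4 calls made in every fit run on them that kept all libraries were Gap43 in L5IT and Dpysl3 in L2/3 for DR against NR in GR-Con, Basp1 in VLMC for DR against NR in GR-KO and Gap43 in astrocytes for the genotype difference under NR, where VLMC could not be refitted with all 8 libraries. Those of Gap43 in L5IT and Basp1 in VLMC were also made without each library, in fits of 1 library against 2. No paired analysis was possible, because the labels pair no library of a group with a library of another group. Sex as a term, with the counts above, was the only block fitted. In fits of 4 libraries it leaves less spread from which to estimate the error. Depth was low for Gap43 in oligodendrocytes, with 23 to 151 UMIs per library, and for Basp1 in VLMC and SMC-Peri, with 9 and 4 and with 6 and 0 UMIs in DR GR-KO. Neuron markers were lower in DR GR-KO VLMC too, at a sum of 487 to 888 CPM against 3047 to 4038 in NR GR-KO. So was the median of UMIs per nucleus, at 3907 and 3656 against 7925 and 11021 in NR GR-KO. The part of either in the Basp1 call was not tested.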
